A study of Mus musculus with 5 samples.

Results

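The genes examined here are 52 genes of mitosis: the cyclins and kinases that start it, the proteins of the kinetochore and spindle, and those that shape and separate the chromosomes. They were chosen by gene symbol for this role, not by their values, and each of the 52 symbols is a row of the 35976 rows in the raw count table. The cells are haematopoietic stem cells (HSCs) of C57BL/6 mice, sorted from bone marrow as lineage-negative, Sca-1+, c-kit+, CD34- and CD150+, with 30 cells per Smart-seq2 library. There are 3 libraries labelled Ythdf3-/-, from mice without the m6A reader YTHDF3, and 2 labelled WT. The labels describe neither the allele nor the age of the mice.

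The labels must be read with care. The series text counts 2 knockout and 3 wild-type samples, the reverse of the sample titles. Ythdf3 itself had 2, 339 and 366 counts under the Ythdf3-/- label (libraries 1, 2 and 3), against 20 and 29 counts under the WT label, so 2 of the 3 libraries labelled as knockout held more of the targeted gene than either labelled WT. Every direction below therefore belongs to the labels only. Totals ran from 6357862 to 16650134 counts per library, and 1 count was worth 0.0601 to 0.157 CPM (a gene's counts scaled to the same total in every library).

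Mitosis is started by cyclin B bound to the kinase CDK1. Kinetochores, built on centromeres, attach chromosomes to spindle microtubules, and a checkpoint delays separation until all are attached. The anaphase-promoting complex then destroys cyclin B and securin. Most adult HSCs are quiescent, and the mRNAs of this programme are made mainly in G2 and M phase, when repression by the DREAM complex is lifted. DREAM binds a short promoter element, the CHR, often with CCAAT boxes nearby.

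These elements were searched in RefSeq promoters (GRCm38.p6, the windows from 250 bases before to 50 after a gene's start). The CHR was taken as TTTGAA or TTCGAA and the CCAAT box as CCAAT, each on both strands, and matches were allowed to overlap. For 44 of the 52 genes the table gave 47 promoters. A CHR match was present in 38 of the 47 (80.9%), against 19.2% of all 32851 promoters and 14.1% of the 10758 promoters of genes tested below. CCAAT matches were present in 74.5% of the mitotic promoters and 37.4% of all promoters. Both kinds were present in 70.2% and 7.52%. A match is a description of letters and not evidence of binding. Printed below, 5′ to 3′ with CHR and CCAAT matches in capitals, are the promoters of Bub3 and of 4 other genes. Bub3 was read in every library, and the other 4 almost only under the WT label. Of these 4, Ccnb2, Cdca8 and Plk1 had most of their CPM in the library labelled WT 2, while Kif22 was high in both libraries labelled WT.

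Ccnb2, chr9:70421505-70421804, minus strand: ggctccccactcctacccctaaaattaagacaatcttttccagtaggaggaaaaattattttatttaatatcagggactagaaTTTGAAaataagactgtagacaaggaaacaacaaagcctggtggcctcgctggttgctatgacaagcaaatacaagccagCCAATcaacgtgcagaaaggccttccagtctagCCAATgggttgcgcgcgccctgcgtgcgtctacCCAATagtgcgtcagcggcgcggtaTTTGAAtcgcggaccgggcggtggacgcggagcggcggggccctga
Cdca8, chr4:124936868-124937167, minus strand: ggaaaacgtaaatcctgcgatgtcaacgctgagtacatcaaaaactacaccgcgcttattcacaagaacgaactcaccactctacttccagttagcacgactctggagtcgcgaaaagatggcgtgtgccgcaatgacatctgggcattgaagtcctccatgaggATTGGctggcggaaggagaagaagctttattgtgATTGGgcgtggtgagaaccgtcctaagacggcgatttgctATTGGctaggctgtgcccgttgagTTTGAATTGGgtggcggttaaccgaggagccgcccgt
Kif22, chr7:127042371-127042670, minus strand: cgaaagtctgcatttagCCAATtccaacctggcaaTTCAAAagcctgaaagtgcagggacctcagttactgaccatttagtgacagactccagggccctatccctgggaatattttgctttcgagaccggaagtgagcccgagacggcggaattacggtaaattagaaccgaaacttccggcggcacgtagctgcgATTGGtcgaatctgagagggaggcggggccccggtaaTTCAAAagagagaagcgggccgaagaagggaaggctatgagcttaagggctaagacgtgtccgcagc
Plk1, chr7:122159185-122159484, plus strand: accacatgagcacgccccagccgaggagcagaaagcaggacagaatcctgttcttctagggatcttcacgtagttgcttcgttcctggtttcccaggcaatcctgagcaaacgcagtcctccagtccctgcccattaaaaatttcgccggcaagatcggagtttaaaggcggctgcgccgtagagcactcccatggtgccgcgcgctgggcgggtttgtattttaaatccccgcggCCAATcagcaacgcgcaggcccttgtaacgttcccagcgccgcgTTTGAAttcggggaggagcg
Bub3, chr7:131560120-131560419, plus strand: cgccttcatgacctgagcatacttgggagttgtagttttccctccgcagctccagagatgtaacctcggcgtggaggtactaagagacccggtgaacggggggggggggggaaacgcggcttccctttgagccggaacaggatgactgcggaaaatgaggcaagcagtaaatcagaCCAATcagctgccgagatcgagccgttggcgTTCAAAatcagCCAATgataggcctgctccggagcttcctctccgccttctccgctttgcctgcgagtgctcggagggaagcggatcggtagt

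Each of these 5 windows holds a CHR match, whichever libraries read the gene. Among the genes whose labels did not overlap (described below), 8 of the 9 with a promoter in the table had a CHR match, and among the other genes 27 of 35 did.

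The mitotic programme was read unevenly, and most of its genes were missing or nearly missing in some libraries. Only 12 of the 52 genes (23.1%) had at least 10 counts in all 5 libraries, against 39.4% of the 15240 genes with a count. They were Ccna2, Bub3, Mad2l1, Pttg1, Kif20a, Kif20b, Kif23, Ckap5, Tacc3, Top2a, Smc2 and Smc4. At the other end 5 genes (Aurka, Ttk, Espl1, Cenpe and Anln) reached 10 counts in no library, and 8 genes reached it in 1 library. Aurka, the kinase of spindle poles, had 2 counts in all, and Anln, the scaffold anillin of the cleavage furrow, had 1. A count of 0 allows a level of up to 3 counts, which is 0.180 to 0.472 CPM depending on the library.

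Fewer of the genes were read under the Ythdf3-/- label. At least 10 counts were present for 26, 19 and 19 of the 52 genes in the libraries labelled Ythdf3-/- 1, 2 and 3, against 40 and 35 in those labelled WT 1 and WT 2. After thinning every library to 6357862 counts, 50%, 34.6% and 36.5% of the genes passed under the Ythdf3-/- label, against 63.5% and 67.3% under the WT label. The labels thus did not overlap at equal depth. For all genes with a count the same shares lay closer together, at 59.9%, 61.5% and 61.9% under the Ythdf3-/- label and 63.8% and 62.6% under the WT label.

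**Figure D1:**
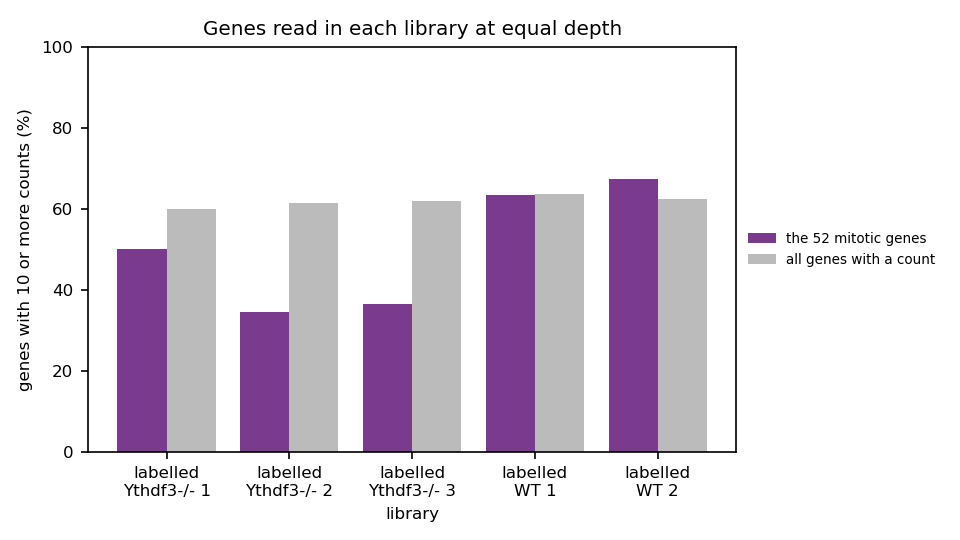
Share of genes with 10 or more counts (y axis, %) in each library (x axis) after thinning to the same depth, for the 52 mitotic genes (purple) and all 15240 genes with a count (grey). The mitotic genes stand at 34.6% to 50% under the Ythdf3-/- label and at 63.5% and 67.3% under the WT label, while the grey bars lie between 59.9% and 63.8%.

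The summed level of the 52 genes was 1168, 921 and 885 CPM in the libraries labelled Ythdf3-/- 1, 2 and 3, against 1009 and 2352 CPM in those labelled WT 1 and WT 2. The labels overlapped, because the library labelled WT 1 lay below that labelled Ythdf3-/- 1, and the library labelled WT 2 stood far above the rest. The means were 992 ± 154 CPM (SD, n = 3) under the Ythdf3-/- label and 1680 ± 950 CPM (SD, n = 2) under the WT label. In bulk libraries fewer dividing cells and less mitotic RNA per cell cannot be told apart. Of the 52 genes, 26 (50%) were highest in the library labelled WT 2, against 23.1% of all genes with a count, and 10 were highest in each of the libraries labelled Ythdf3-/- 1 and WT 1.

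**Figure D2:**
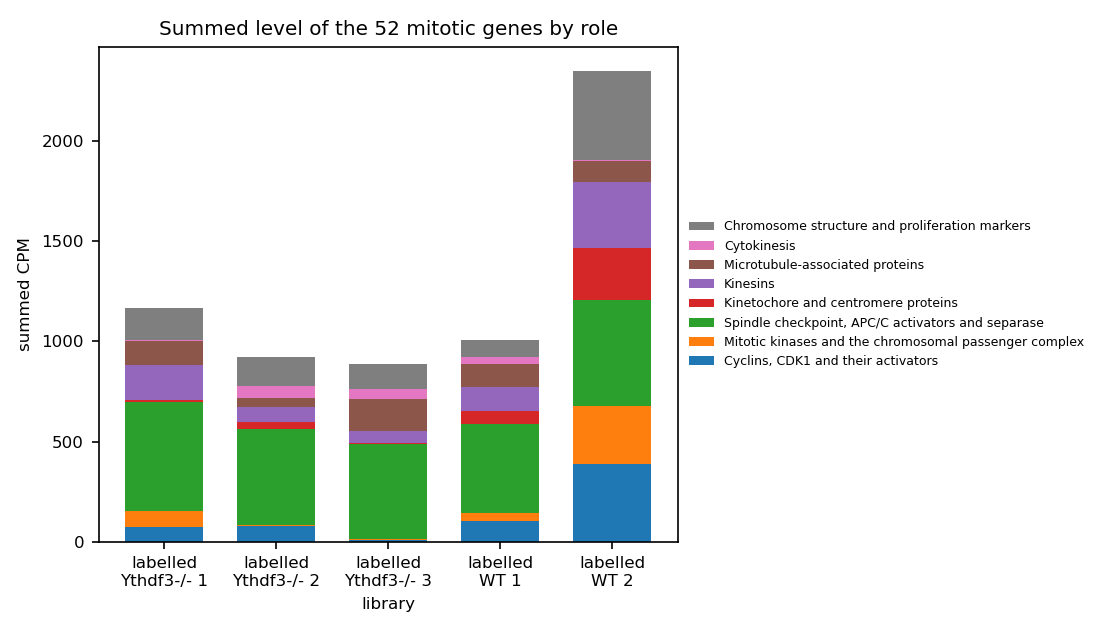
Summed CPM of the 52 genes (y axis) in each library (x axis), stacked by the role of the genes (colours). The library labelled WT 2 reaches 2352 CPM and the other libraries lie between 885 and 1168 CPM, of which the checkpoint and APC/C group (green) is the largest part in each library.

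RNA of the erythroid lineage was uneven too, and the libraries labelled WT 2 and Ythdf3-/- 1 held different genes of it. Gata1, the master regulator of red cell development, had 1061 counts in the library labelled WT 2 and at most 6 counts in any other library. Klf1 had 9, 9 and 343 counts under the Ythdf3-/- label, against 5 and 1514 under the WT label, and Car1 had 24, 19 and 20 against 19 and 4093 counts. Alas2, Slc4a1 and Rhag were highest in the library labelled Ythdf3-/- 1 instead. Alas2, the first enzyme of haem synthesis in red cells, had 961, 2.09 and 0 CPM under the Ythdf3-/- label, against 0.781 and 16.6 CPM under the WT label. Slc4a1 had 148, 0.110 and 0 CPM against 0 and 0.335 CPM, and Rhag had 167, 0 and 1 counts against 14 and 90 counts. Of 20 erythroid markers, 19 had at least 10 counts in the library labelled WT 2, against 10 to 13 in each of the others.

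The summed level of that marker list was 38840, 3145 and 3390 CPM under the Ythdf3-/- label and 3165 and 3895 CPM under the WT label. Without the 4 adult globin genes, which made up most of it in the library labelled Ythdf3-/- 1, it was 3316, 3020 and 3321 CPM against 3134 and 3472 CPM. Most of that remainder was Car2 and Nfe2, which every library read at 1143 to 2596 CPM and at 200.2 to 1318 CPM. Slamf1, which encodes the CD150 used in the sort, had 328, 354 and 211 counts under the Ythdf3-/- label, against 482 and 1 under the WT label, the single count being in the library labelled WT 2. Of the other sort genes, Kit had 244 to 562 CPM and Ly6a 101 to 394 CPM in every library. Procr, another HSC gene, had 38.8, 265 and 151 CPM under the Ythdf3-/- label, against 84.9 and 67.3 CPM under the WT label. Of 22 HSC identity genes, 20, 22 and 20 reached 10 counts under the Ythdf3-/- label, against 22 and 20 under the WT label. Their sum was 3900, 5121 and 5512 CPM against 4670 and 2953 CPM. Genes of B cells were also uneven, with Pax5 at 212 counts under Ythdf3-/- 1 and no more than 5 in the rest. Of 12 B cell markers, 10, 5 and 5 had at least 10 counts under the Ythdf3-/- label and 11 and 6 under the WT label, and their sum was 1847, 221 and 133 CPM against 662 and 59.9 CPM. Pf4, of megakaryocytes, had 15.9, 10.2 and 22.4 CPM under the Ythdf3-/- label and 56.3 and 83.6 CPM under the WT label, without overlap, while the 8 megakaryocyte markers in the table summed to 38.8, 97.9 and 129 CPM against 274 and 115 CPM. The 18 monocyte, macrophage and dendritic cell markers summed to 1202, 803 and 935 CPM under the Ythdf3-/- label, against 608 and 466 CPM under the WT label, without overlap. Lyz2 was most of this sum in each library, and C1qc had 364, 298 and 259 counts against 10 and 0, while Csf1r had at most 12 counts. The 10 T and NK cell markers in the table summed to 93.1, 92.9 and 30.5 CPM against 2.28 and 10.4 CPM, with Cd3d and Cd3g at 0 throughout. The 12 neutrophil and granule markers summed to 579, 322 and 803 CPM against 617 and 445 CPM, most of it Prtn3 in every library, with Elane at no more than 22 counts. The part of these other cell types in the mitotic values was not tested, and results are given without the library labelled WT 2 where it matters.

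No mitotic gene passed the test between the labels. Of the 52 genes 37 passed the filter on low counts, and 0 of these had an edgeR adjusted p under 0.05, as did 0% of all 11146 genes tested. At an edgeR unadjusted p under 0.05 there were 6 lower and 0 higher under the Ythdf3-/- label. The whole table gave 2.75% lower and 2.11% higher (4.85% in all). Of the 6, Ccnb2, Incenp, Cdca8, Tpx2 and Bub1b passed the filter only through the libraries labelled WT, so they could enter only as lower. A stricter filter (at least 1 CPM in at least 3 libraries) removed them. It left 24 mitotic genes, with 1 lower and 0 higher at an edgeR unadjusted p under 0.05. Over the whole table, 377 of the 9635 genes it left had such a p, in either direction. With DESeq2, 3 genes passed, all lower (Ccnb2, Kif22 and Cdca8), where 0.687% of the genes with an adjusted p passed as lower and 1.70% as higher. With limma voom, 0 mitotic genes and 0 genes of the table passed. Its unadjusted p was under 0.05 for 6 mitotic genes, and for 726 of all 11146 genes tested. The median fitted log2 fold change of the 37 genes was -1.07, with 26 lower and 11 higher, against -0.06 over all genes tested. These figures include genes whose direction the filter had fixed. Besides those named above, Cenpf and Kif11 passed it only through the libraries labelled WT, and Ect2 only through those labelled Ythdf3-/-. With the stricter filter the median was -0.96, with 17 lower and 7 higher, against -0.04 over all genes it left.

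The median depended on single libraries. Without that labelled WT 2 the median was 0.23, close to the 0.22 of all genes in that fit, and 20 of the 43 genes then tested were lower. Of the 26 genes lower in the fit of 5 libraries, 13 turned higher and 13 stayed lower. Without both WT 2 and Ythdf3-/- 1 the median was -0.97, against 0.09 for all genes, with 22 of 38 genes lower.

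A gene's labels are said here not to overlap when each library of a label lies beyond each library of the other. This held for 11 of the 52 genes as lower under the Ythdf3-/- label (21.2%, against 10.7% of all genes with a count) and for 0 as higher (against 7.49%). Among tested genes alone the shares were 11% lower and 9.74% higher. The 11 genes were Ccnb2, Plk1, Incenp, Cdca8, Tpx2, Bub1b, Cenpf, Nuf2, Kif11, Kif22 and Ckap2l. Without the library labelled WT 2, 18 genes were lower in this sense (background 28.5%) and 5 were higher (background 16%). Without that labelled WT 1 the counts were 29 lower (27.6%) and 4 higher (19.2%). Leaving out Ythdf3-/- 1, 2 or 3 gave 19, 16 and 14 lower (16.2%, 16% and 16.3%) and 1, 3 and 1 higher (14.1%, 12.7% and 12.7%).

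**Figure D3:**
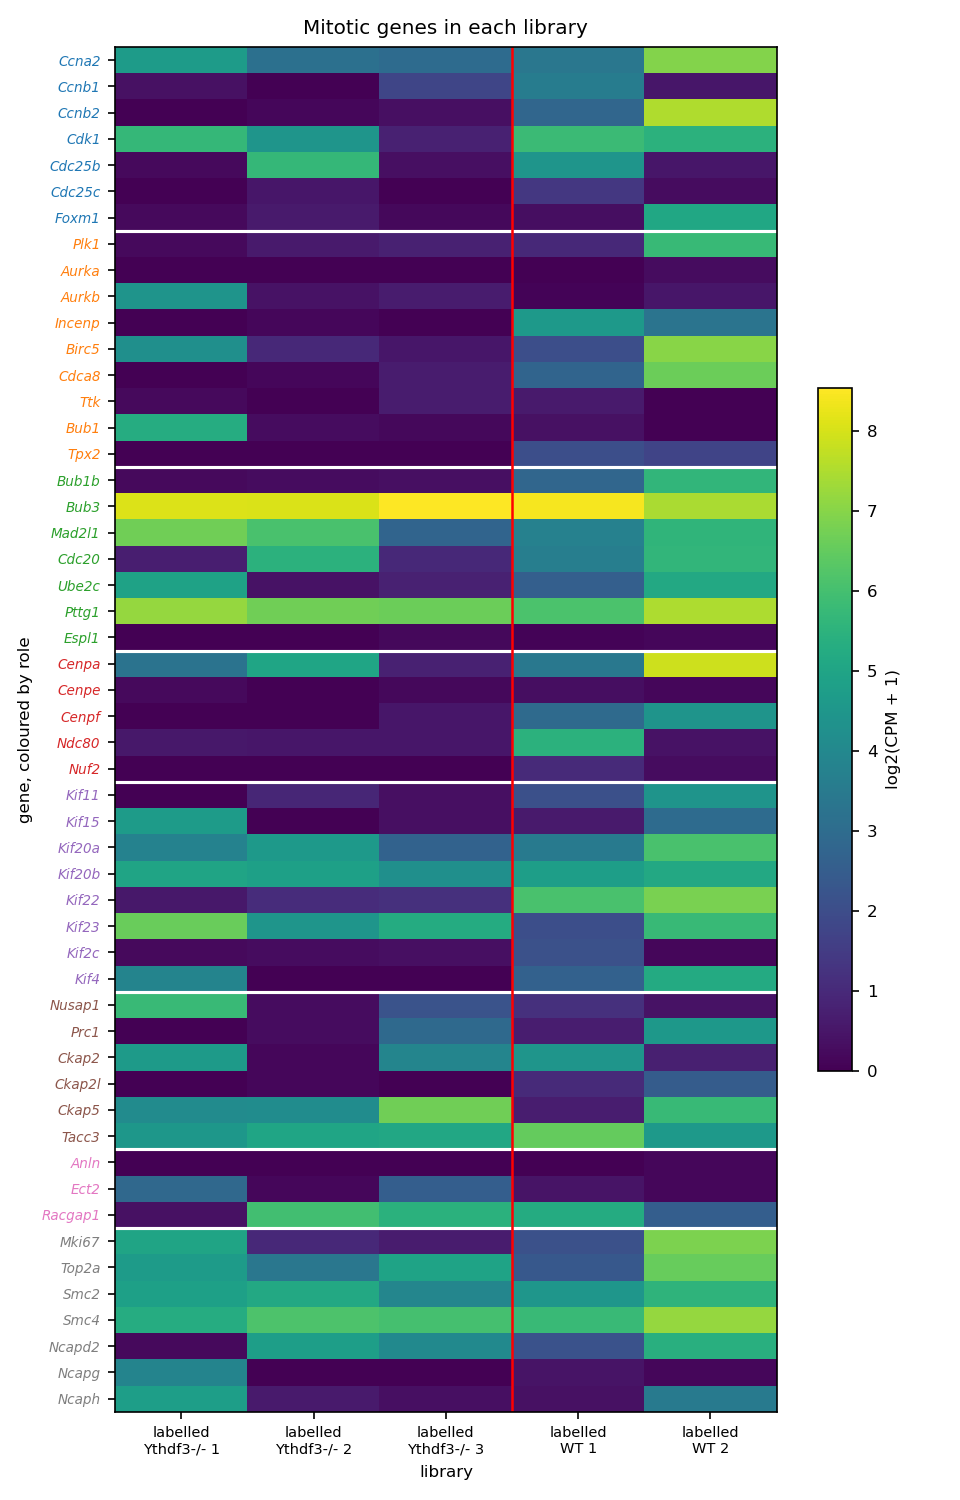
Level of each of the 52 genes (rows, grouped by role and separated by white lines) in each library (columns, the red line dividing the labels), as log2(CPM + 1). Few rows are bright throughout, among them Bub3, Pttg1 and Smc4, and 26 rows are brightest in the library labelled WT 2.

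Cyclins and CDK1 activators drive entry into mitosis. Ccnb2 (cyclin B2; chromosome 9, 70407692 to 70421547, GRCm38) had 0, 1 and 2 counts under the Ythdf3-/- label, against 102 and 1653 counts under the WT label. It was thus all but absent under the first label and present in both libraries of the second, most of it in WT 2. Its summed counts per total were 513 times as high under the WT label (95% exact interval 175 to 2488, counting error only). It had a fitted log2 fold change of -9.48 (SE 2.22, edgeR unadjusted p = 0.00264, adjusted p = 0.964; DESeq2 adjusted p = 1.68e-05). Fitted values this low depend on the small count added by the software. Without the library labelled WT 2 it was -5.43.

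The partner cyclin went to another library. Ccnb1 (cyclin B1), whose reads may be shared with several processed pseudogenes of over 95% identity, had 2, 0 and 17 counts under the Ythdf3-/- label, against 183 and 4 counts under the WT label. Where Ccnb2 was at its highest, in the library labelled WT 2, Ccnb1 was nearly missing. Cdk1, the kinase that both cyclins activate, had 49.9, 21.0 and 0.713 CPM under the Ythdf3-/- label and 55.0 and 44.3 CPM under the WT label, and was low in the library labelled Ythdf3-/- 3 only. Ccna2 (cyclin A2, of S and G2 phase) had 24.5, 7.93 and 6.98 CPM against 9.43 and 123 CPM, and 12.5% of its exonic bases are shared with Exosc9 on the other strand.

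The phosphatase genes that activate CDK1 were scattered. Cdc25b had 1, 457 and 2 counts under the Ythdf3-/- label and 351 and 4 counts under the WT label, so each label had both high and empty libraries. Cdc25c had at most 27 counts anywhere. Foxm1, the transcription factor that activates many G2/M genes, had 1, 5 and 1 counts against 4 and 296 counts, and stood out in the library labelled WT 2 alone. The 7 genes of this role together averaged 55.4 ± 38.7 CPM (SD, n = 3) under the Ythdf3-/- label and 245 ± 199 CPM (SD, n = 2) under the WT label, where WT 1 stood at 104 CPM and WT 2 at 386 CPM.

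Mitotic kinases and their partners were the role most confined to a few libraries. In the libraries labelled Ythdf3-/- 1, 2 and 3, 3, 0 and 0 of its 9 genes reached 10 counts, against 5 in each of those labelled WT 1 and WT 2. Plk1 (chromosome 7, 122159439 to 122169873), the polo-like kinase, had 1, 5 and 5 counts under the Ythdf3-/- label and 16 and 478 counts under the WT label. It failed the filter and was not tested. The labels did not overlap, but in CPM the library labelled WT 1, at 0.961, was close to the 0.713 of that labelled Ythdf3-/- 3. Tpx2, which activates Aurora A on the spindle, had 0 counts in all libraries labelled Ythdf3-/-, against 53 and 21 counts under the WT label. Counting 3 as the limit for the Ythdf3-/- label as a whole, its pooled counts per total were at least 21.6-fold lower there. That bound covers counting error only and not the variation between mice. For a single library labelled Ythdf3-/-, 0 counts allow up to 0.331 to 0.472 CPM, against 3.18 and 2.34 CPM under the WT label. The test gave an edgeR unadjusted p = 0.0322 and an adjusted p = 0.964. Bub1, a kinase of the checkpoint, went the other way, with 242, 2 and 1 counts against 5 and 0, all but a few of them in the library labelled Ythdf3-/- 1. Ttk had at most 9 counts.

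The chromosomal passenger complex, which corrects wrong attachments, joins Aurora B to INCENP, survivin and borealin, and no library read all 4 of its subunits at 10 counts or more. Aurkb (Aurora B) had 131, 3 and 4 counts under the Ythdf3-/- label, against 1 and 4 counts under the WT label. Incenp (chromosome 19, 9872296 to 9899551) had 0, 1 and 0 counts under the Ythdf3-/- label, against 385 and 78 counts under the WT label. Kinase and scaffold were thus read in different libraries, Aurkb in Ythdf3-/- 1 and Incenp in both libraries labelled WT.

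Birc5 (survivin) had 115, 9 and 3 counts under the Ythdf3-/- label, against 53 and 1156 counts under the WT label. Cdca8 (borealin; chromosome 4, 124918465 to 124939311) had 0, 1 and 4 counts, against 95 and 871. Birc5 overlapped between the labels and Cdca8 did not. The log2 fold change of Incenp was -8.29 (SE 2.95, edgeR unadjusted p = 0.0227, adjusted p = 0.964) and that of Cdca8 -7.88 (SE 2.62, edgeR unadjusted p = 0.0167, adjusted p = 0.964; DESeq2 adjusted p = 0.0061). That of Birc5 was -3.46 (SE 2.18, adjusted p = 0.9998) and turned to 0.97 without the library labelled WT 2, while Incenp stood at -8.82 and Cdca8 at -4.60 in the same fit.

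Genes of the checkpoint and of the anaphase-promoting complex held the most evenly read members. Bub3 (chromosome 7, 131560222 to 131571895), a checkpoint protein of the kinetochore, had 272, 267 and 370 CPM in the libraries labelled Ythdf3-/- and 344 and 175 CPM in those labelled WT. Pttg1, the securin that holds separase inactive, had 143, 103 and 98.2 CPM against 69.1 and 177 CPM. The labels overlapped for both, and their log2 fold changes were 0.14 (SE 0.42) and -0.20 (SE 0.64), with an edgeR adjusted p of 0.9998 each. Per kilobase of exon, these were the highest of the 52 genes, at a mean of 59.0 CPM per kb for Pttg1 and 40.8 CPM per kb for Bub3. The next, Ccnb2 at 24.9 CPM per kb, had its mean from the library labelled WT 2, where it stood at 120.4 CPM per kb, above Pttg1 at 88.4 CPM per kb and Bub3.

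Together Bub3 and Pttg1 took 35.5%, 40.2% and 52.9% of the summed level under the Ythdf3-/- label, against 40.9% and 15.0% under the WT label. Without them the sum was 753, 551 and 417 CPM under the Ythdf3-/- label, against 596 and 2000 CPM under the WT label. The library labelled WT 1 still lay within the range of those labelled Ythdf3-/-.

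Bub1b (BubR1; chromosome 2, 118598211 to 118641591), which holds back the APC/C activator CDC20, had 1, 2 and 2 counts under the Ythdf3-/- label, against 100 and 434 counts under the WT label. Its log2 fold change was -6.98 (SE 2.58, edgeR unadjusted p = 0.0264, adjusted p = 0.964), and -4.72 without the library labelled WT 2. Mad2l1, its partner in the checkpoint, was read in each library, with 101, 66.2 and 5.70 CPM against 12.4 and 47.3 CPM, though a processed pseudogene resembles it over 454 bases. Cdc20 itself had 4, 399 and 7 counts under the Ythdf3-/- label, against 194 and 427 under the WT label. Ube2c, the ubiquitin-conjugating enzyme of the APC/C, had 186, 3 and 5 counts against 84 and 306, and shares 22.8% of its exonic bases with Tnnc2. For these last genes the labels overlapped through a single library each, Ythdf3-/- 2 for Cdc20 and Ythdf3-/- 1 for Ube2c. Espl1 (separase) had at most 1 count in any library.

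The role of kinetochore and centromere proteins held 5 genes. At least 10 counts were reached by 1, 1 and 0 of them under the Ythdf3-/- label, against 4 and 2 under the WT label. Further kinetochore and centromere genes, outside those chosen here, went both ways, but more were apart as lower. The labels did not overlap for Cenpt and Mis18a as higher under the Ythdf3-/- label. As lower, they did not overlap for Cenpb, Cenpw, Pmf1, Spc25, Casc5, Knstrn and Sgol2a. Cenpa (chromosome 5, 30666777 to 30674830), the histone H3 variant that marks centromeres, had 54, 287 and 5 counts under the Ythdf3-/- label, against 163 and 2134 counts under the WT label. The labels overlapped, and the log2 fold change of -3.29 (SE 1.67, edgeR adjusted p = 0.983) became 0.44 without the library labelled WT 2. Cenpf (chromosome 1, 189640606 to 189688086), a large coiled-coil protein of the outer kinetochore, had 0, 0 and 3 counts against 112 and 183, with no overlap. Its log2 fold change was -6.58 (SE 2.98, edgeR unadjusted p = 0.0574, adjusted p = 0.983), and it moved to -5.47 when WT 2 was left out and to -10.18 when Ythdf3-/- 3 was. Cenpe, a kinesin that moves chromosomes to the spindle equator, had at most 4 counts.

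The NDC80 complex grips the microtubule end. Ndc80 had 3, 4 and 3 counts under the Ythdf3-/- label, against 726 and 3 under the WT label, so it was read in the library labelled WT 1 alone. Nuf2 had 0 counts in the libraries labelled Ythdf3-/-, against 17 and 2 under the WT label. Its labels did not overlap, but the 0.223 CPM in WT 2 lies below the limit for 0 counts under the Ythdf3-/- label. That limit is 0.331 to 0.472 CPM. Spc24 and Spc25, the other subunits, had 458, 4 and 3 counts and 0, 4 and 0 counts under the Ythdf3-/- label, against 36 and 1141 and 33 and 30 counts under the WT label. The library labelled WT 1 was the only library with all 4 subunits at 10 counts or more.

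Kinesins push, slide and carry along spindle microtubules. Kif22 (chromosome 7, 127027729 to 127042471), a chromosome-arm motor, had 3, 10 and 9 counts under the Ythdf3-/- label, against 1117 and 994 counts under the WT label. In CPM this was 0.952 ± 0.426 (SD, n = 3) and 89.0 ± 30.9 (SD, n = 2). Both libraries labelled WT were high and each library labelled Ythdf3-/- was near 0. The log2 fold change was -6.62 (SE 1.53, edgeR unadjusted p = 0.00244, adjusted p = 0.964; DESeq2 adjusted p = 6.36e-05) and stayed at -6.15 without the library labelled WT 2. Of its exonic bases 1.96% lie in a gene on the other strand. Kif11, the motor that separates spindle poles, had 0, 8 and 2 counts against 54 and 182, and its log2 fold change was -4.96 (SE 2.72, edgeR adjusted p = 0.9998), or -3.03 without the library labelled WT 2.

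Other kinesins did not follow it. Kif23, which acts in the midbody, had 94.4, 20.9 and 37.2 CPM under the Ythdf3-/- label and 3.18 and 52.5 CPM under the WT label (log2 fold change 0.75, SE 1.55, edgeR adjusted p = 0.9998). It was lowest in the library labelled WT 1. Kif20b had 30.8, 28.1 and 18.1 CPM against 26.7 and 34.8 CPM, the narrowest spread among the kinesins. Kif15 had 156, 0 and 2 counts against 9 and 62, and Kif4 had 85, 0 and 0 against 88 and 323, each with its Ythdf3-/- counts in the first library. Kif2c was read in the library labelled WT 1 alone, at 55 counts. Kif20a had 12.7, 23.5 and 5.42 CPM against 10.2 and 66.8 CPM, but 29.3% of its exonic bases are shared with Cdc23.

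Microtubule-associated proteins as a role averaged 108 ± 55.5 CPM (SD, n = 3) under the Ythdf3-/- label and 109 ± 6.9 CPM (SD, n = 2) under the WT label. Single genes did not move together. Nusap1, which bundles spindle microtubules, had 347, 2 and 25 counts under the Ythdf3-/- label, against 21 and 3 counts under the WT label, and was the gene with the highest fitted fold (log2 fold change 4.51, SE 3.16, edgeR adjusted p = 0.9998). The value rested on the library labelled Ythdf3-/- 1 and was 1.17 without it.

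Tacc3, which stabilises microtubules at the poles, had 21.7, 31.4 and 33.3 CPM against 90.1 and 23.5 CPM. Its partner Ckap5 had 16.2, 16.6 and 101 CPM against 0.601 and 53.3 CPM, so the 2 partners peaked in different libraries, Tacc3 in WT 1 and Ckap5 in Ythdf3-/- 3. Ckap2 had 154, 1 and 97 counts against 345 and 6, Ckap2l had 0, 1 and 0 against 17 and 41, and Prc1, the cross-linker of the central spindle, had 0, 2 and 46 against 10 and 199 (11.1% of its exonic bases shared with Rccd1). Of these, the labels were apart for Ckap2l alone.

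Cytokinesis was represented by 3 genes, and both tested ones had a fitted fold above 0. Racgap1, which forms centralspindlin with the Kif23 protein, had 0.315, 60.2 and 43.2 CPM under the Ythdf3-/- label, against 36.7 and 4.79 CPM under the WT label (log2 fold change 0.68, SE 2.09, edgeR adjusted p = 0.9998). It was nearly missing in the library labelled Ythdf3-/- 1, where Kif23 was at its highest. Ect2, the exchange factor that centralspindlin recruits, had 41, 1 and 34 counts against 6 and 1 (log2 fold change 3.84, SE 2.79, edgeR adjusted p = 0.9998). Ect2 passed the filter only through the libraries labelled Ythdf3-/- 1 and 3, so it could enter only as higher. The log2 fold change of Racgap1 was -0.11 without the library labelled WT 2.

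Chromosome structure genes include the condensin I complex, which compacts mitotic chromosomes. Its core ATPases were read in every library: Smc4 had 38.1, 69.4 and 63.8 CPM under the Ythdf3-/- label and 54.1 and 143 CPM under the WT label, and Smc2 had 28.0, 34.7 and 14.3 CPM against 21.4 and 46.1 CPM. The labels overlapped for both, with a log2 fold change of -0.89 (SE 0.82, edgeR adjusted p = 0.9998) for Smc4. The regulatory subunits, which are specific to condensin I, were not read so evenly. Ncapd2 had 1, 242 and 108 counts against 57 and 362. Ncapg had 85, 0 and 0 against 6 and 1, and Ncaph had 167, 5 and 2 against 5 and 93. No library had all 5 subunits at 10 counts or more.

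Proliferation markers were highest in the library labelled WT 2. Mki67 (chromosome 7, 135689784 to 135716361), which encodes Ki-67, had 194, 9 and 4 counts under the Ythdf3-/- label, against 55 and 1037 counts under the WT label. Its log2 fold change was -2.60 (SE 2.19, edgeR adjusted p = 0.9998) and became 1.63 without the library labelled WT 2. Top2a, the topoisomerase that untangles sister chromatids, had 24.7, 9.47 and 30.2 CPM against 4.08 and 93.0 CPM. The library labelled Ythdf3-/- 3 was thus lowest for Mki67 but second to WT 2 for Top2a.

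**Figure D4:**
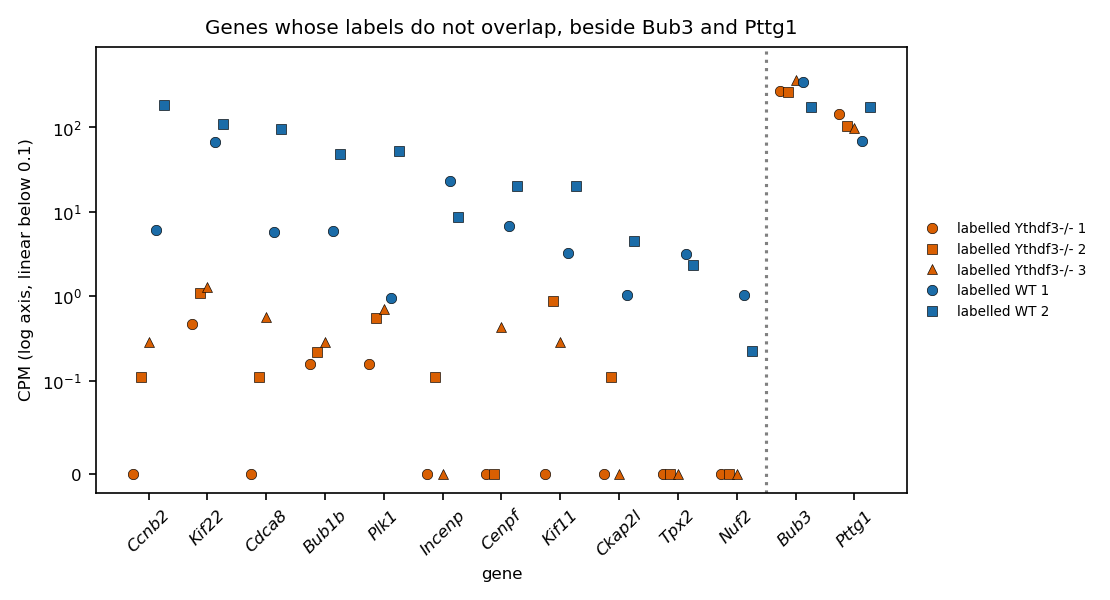
CPM (y axis, log scale, linear below 0.1) in each library of the 11 genes whose labels do not overlap, with Bub3 and Pttg1 on the right. Orange points are the libraries labelled Ythdf3-/- and blue points those labelled WT, with a shape for each replicate. All blue points of the 11 genes lie above all orange ones, while for Bub3 and Pttg1 the colours mix.

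Reads of single genes were concentrated in few libraries. For the tested mitotic genes, the highest library held a median of 57.6% of the CPM summed over the 5 libraries, against 40.8% for all tested genes, both under the same filter. Over all 52 genes, filtered or not, the median was 70.3%. At least 90% lay in 1 library for 3 of the 37 tested mitotic genes (8.11%), against 1.72% of all tested genes. Over all 52 genes it did so for 11, among them Ccnb2, Foxm1, Plk1, Cdca8, Aurkb, Bub1, Ndc80, Nusap1 and Ncapg; Aurka and Anln, the others, had at most 2 counts.

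**Figure D5:**
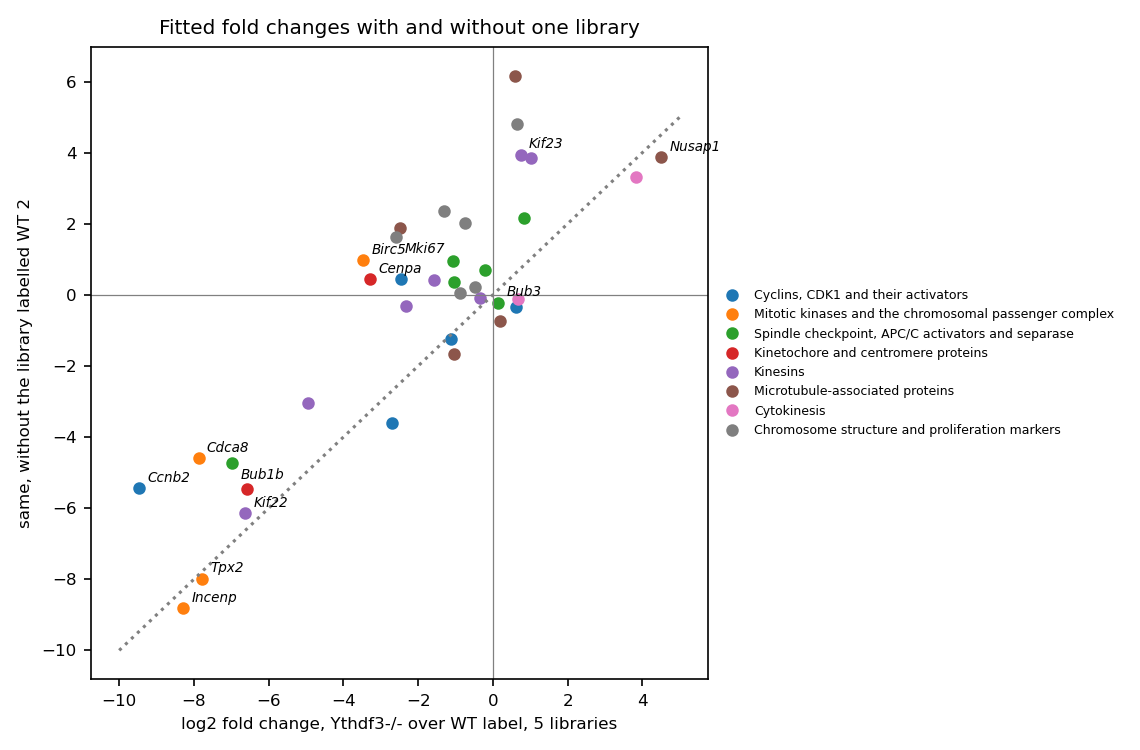
Fitted log2 fold change, Ythdf3-/- over WT label, of the 37 tested genes with 5 libraries (x axis) and without the library labelled WT 2 (y axis), coloured by role. The dotted line marks equal values. Incenp, Tpx2 and Kif22 lie near it, while Birc5, Cenpa and Mki67 are below 0 on the x axis and above 0 on the y axis.

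Other genes of cell division, from lists chosen by role, were set beside these. Of 110 other mitosis genes in the table (subunits of the APC/C, cohesin, condensin II, the inner centromere and further spindle proteins) 80 were tested and 0 passed. Their median log2 fold change was -0.03, with 41 lower and 39 higher, and their labels did not overlap for 19 as lower (17.3%, against 10.7% of all genes with a count) and 5 as higher (4.55%, against 7.49%). At an unadjusted p under 0.05 stood Hmmr, a spindle protein, with 0, 1 and 1 counts against 26 and 483, and Pmf1, of the MIS12 kinetochore complex, with 59.3 ± 27.9 CPM (SD, n = 3) against 188 ± 48.2 CPM (SD, n = 2). H2afx, the histone variant marked at DNA breaks, was the 1 gene on the higher side, with 217 ± 98.8 CPM (SD, n = 3) against 60.0 ± 24.9 CPM (SD, n = 2). The edgeR adjusted p was 0.964 for each. Hmmr passed the filter only through the libraries labelled WT, so it could enter only as lower.

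Among 52 genes of G1/S and DNA replication, which act before mitosis, 49 were tested and 0 passed, with 35 lower, 14 higher and a median of -0.69. Of these, 6 had an unadjusted p under 0.05, all lower, where 2.75% of all tested genes were lower and 2.11% higher. Ccne1, among these 6, had 2, 2 and 1 counts against 34 and 2462. It passed the filter only through the libraries labelled WT, so it could enter only as lower. The labels of the 52 genes did not overlap for 11 as lower (21.2%, against 10.7% of all genes with a count) and 1 as higher (1.92%, against 7.49%). Another list held 22 genes that restrain G2/M, namely DREAM subunits, pocket proteins and CDK inhibitors. Of these, 17 were tested and 0 passed, with 7 lower, 10 higher and a median of 0.37. The labels did not overlap for 3 as lower (13.6%, against 10.7%) and 4 as higher (18.2%, against 7.49%). These 22 genes summed to 1495, 1380 and 1788 CPM under the Ythdf3-/- label, against 1344 and 919 CPM under the WT label. Only Cdkn2c, an inhibitor of CDK4 and CDK6, had an unadjusted p under 0.05 among them, with 1, 1 and 0 counts against 319 and 142 (edgeR adjusted p = 0.964). Cdkn2c too passed the filter only through the libraries labelled WT, so it could enter only as lower.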

How the data were processed

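The authors deposited raw read counts per gene symbol, 1 column per library. Per the submitters' processing notes, HISAT2 2.2.1, HTSeq 0.12.4 and the mm10 build were used. The annotation, the strandedness and the rule for multi-mapped reads were not given in the sources used here. Therefore reads over exons of overlapping genes cannot be assigned (19 of the 52 genes share exonic bases with another gene, 7 of them over 10%). The series text says that the 5 mice differed, so replicates are animals.

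CPM were counts divided by the library total. Counts were tested in R 4.3.3 with edgeR 4.0.16 (default filter, TMM, robust quasi-likelihood, no covariate) over all genes, adjusted by the Benjamini-Hochberg method at 0.05. The estimated biological coefficient of variation was 1.26, so a p that misses the threshold does not show that levels did not differ. SEs were derived from the F statistic. Alternatives were DESeq2 1.42.0, limma 3.58.1 voom, other scalings and filters, a replicate block and left-out libraries. No 2 libraries were alike (Spearman 0.563 to 0.664 across genes). Positions and exon lengths come from GENCODE (GRCm38), near-identical transcripts from BLAST+ 2.17.0 (at least 95% identity over 150 bases) and promoters from RefSeq; the promoters of tested genes were added as a background after seeing the data. Intervals cover counting error only, since reads without molecule identifiers are not independent.

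The genes and lists were chosen with earlier results of these data known. The rule for genes given in full took those with an unadjusted p under 0.05, those without overlap and a mean of at least 10 CPM under a label, and for each role the gene of highest mean CPM and that of largest fold. Other genes are named as examples, after their values were seen.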

Additional observations from a re-analysis of the deposited data

How the results depend on the processing

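The count of genes passing, 0 in the main test, was 21 with no filter and 250 with DESeq2, and ran from 0 to 1 when a library was left out. The mitotic genes among them, 0 in the main test, were 1 with no filter (Ccnb2, adjusted p = 0.00852) and 3 with DESeq2. The median log2 fold change, -1.07, ran from -1.66 to 0.23 over the fits that left out a library. The log2 ratio of summed levels, -0.76, ran from -1.25 to -0.025. Genes without overlap, 11 as lower and 0 as higher with 5 libraries, ran from 14 to 29 as lower and from 1 to 5 as higher. With fewer libraries, labels separate more often for all genes. Without both WT 2 and Ythdf3-/- 1, the ratio was -0.16, and 27 genes were lower (background 36.1%) and 8 higher (background 25.1%). Without WT 2 the sign turned in 17 of the 37 mitotic genes tested in both fits, 13 to higher and 4 to lower. Of the genes given in full, 8 turned sign when some library was left out. Their log2 fold changes ran from -6.59 to 0.97 for Birc5, -0.22 to 0.66 for Bub3, -4.87 to 0.44 for Cenpa, -0.11 to 2.72 for Racgap1, -6.31 to 1.63 for Mki67, -1.45 to 0.05 for Smc4, -0.18 to 3.95 for Kif23 and -1.68 to 0.16 for Tacc3. Without both named libraries Bub3 stood at -0.17, Cenpa at 0.66 and Smc4 at 0.24. Racgap1 was -0.76 with limma voom. The cause of these shifts was not tested. The replicate numbers pair nothing in the design, and same-numbered libraries did not deviate together (r of -0.0043 and 0.0094). With the replicate block 0 genes passed, the median was -1.37 and Racgap1 was -1.48. An unadjusted p under 0.05 was reached by 3 mitotic genes instead of 6, and by 285 instead of 541 of all 11146 genes tested. A fit with 1 library left under the WT label assumes that it varies like the others. The stricter filter gave no value for Ccnb2, Cdca8, Incenp, Tpx2, Bub1b, Cenpf, Kif11 and Ect2, nor did the fits without Ythdf3-/- 1 or 3 for Ect2.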
